A study of Homo sapiens with 12 samples.

Results

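The 10 genes described here encode cytoplasmic tyrosine kinases: the SRC family kinases SRC, YES1, FYN and LYN, their inhibitory kinase CSK, the focal adhesion kinase relative PTK2B, the FES family kinases FER and FES, and the Janus kinases JAK1 and JAK2. They were chosen by name as tyrosine kinases related to ABL1 and ABL2, and they are 10 of the 49651 genes with counts in the table. The mRNA was measured in D283, an established human cell line from a medulloblastoma, a malignant tumour of the cerebellum. The 3 control libraries came from D283 cells with a scrambled control, and the 3 inactivated libraries came from D283 cells in which ABL1 and ABL2 had both been genetically inactivated. The series concerns ABL kinases in medulloblastoma, and the comparison asked whether the mRNA of kinases close to ABL differed when ABL mRNA was reduced. The method of inactivation, and whether the cells were 1 clone or a pool, are not given in the sources used here. Separate cultures are not named in the labels for the 3 libraries of a group, so every p-value measures only the spread between these libraries, which may be technical.

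ABL and SRC family kinases share an arrangement of an SH3, an SH2 and a kinase domain, and SRC family kinases can phosphorylate ABL kinases. SRC family kinases are held inactive when CSK phosphorylates a tyrosine in their tail, a brake that tyrosine phosphatases release. JAK kinases sit on the tails of cytokine receptors and phosphorylate STAT transcription factors, PTK2B is a calcium-responsive relative of focal adhesion kinase, and FES and FER carry a membrane-bending F-BAR domain before their SH2 and kinase domains. FYN and YES1 are broadly present in neural tissue, whereas LYN and FES are best known from blood cells. All of these kinases are controlled in large part by phosphorylation, which mRNA counts do not measure.

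The promoters of FES and YES1 are shown because these genes stood at the opposite ends of the set, FES with almost no counts in the control libraries and YES1 with the highest level per length. Capitals mark CG dinucleotides, the sites of DNA methylation in vertebrate promoters. Each window runs from 250 bases before to 50 bases after a RefSeq start on GRCh38.p14. The FES window is chr15:90884796-90885095 on the plus strand, and the YES1 window is chr18:812193-812492 on the minus strand. Both windows lie inside the gene spans, chr15:90884504-90895776 for FES and chr18:721588-812753 for YES1. They therefore surround internal starts, and the outermost start of each gene is not shown.
FES: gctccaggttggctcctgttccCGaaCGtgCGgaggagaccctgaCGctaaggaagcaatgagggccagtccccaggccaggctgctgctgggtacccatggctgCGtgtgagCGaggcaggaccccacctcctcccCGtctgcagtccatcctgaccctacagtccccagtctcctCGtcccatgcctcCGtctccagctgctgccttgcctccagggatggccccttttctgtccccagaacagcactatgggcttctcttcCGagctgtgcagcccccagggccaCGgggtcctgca
YES1: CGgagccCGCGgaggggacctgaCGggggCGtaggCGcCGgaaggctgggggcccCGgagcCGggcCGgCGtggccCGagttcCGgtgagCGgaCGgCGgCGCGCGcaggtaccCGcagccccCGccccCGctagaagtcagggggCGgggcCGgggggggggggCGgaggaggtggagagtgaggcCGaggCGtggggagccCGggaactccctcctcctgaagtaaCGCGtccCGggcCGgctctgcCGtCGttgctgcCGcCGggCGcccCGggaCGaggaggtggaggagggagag
The FES window held 11 CG pairs at a GC content of 65.0%, and the YES1 window held 39 CG pairs at 78.7%. Across 35116 RefSeq promoter windows of the same length the median was 14 CG pairs, with quartiles of 4 and 28, and the median GC content was 58.7%. The SP1-type motif GGGCGG, searched on both strands, occurred 3 times in the YES1 window and not in the FES window. It was in 45.0% of all windows, and in 5 of the 15 windows, from 4 genes, that could be matched to 7 of the 10 kinases. The STAT-type motif TTCNNNGAA, the E-box CACGTG and the letters TATAAA on either strand were in none of these 15 windows, against 7.66%, 7.26% and 11.5% of all windows. No motif searched lies within another. Promoter activity was not measured, and a match of letters is a description only.

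Counts summed over both sequencing lanes came to between 33505903 and 49034159 per library. A gene without a read in a library therefore had a level of at most 0.0612 to 0.0895 CPM (counts per 1000000 counts of a library), which is what 3 counts are worth. ABL1 fell from 153 ± 4.82 to 61.9 ± 0.625 CPM (mean ± SD, n = 3 each), a log2 fold change of -1.31 ± 0.04 (SE; edgeR adjusted p = 5.4e-15). ABL2 fell less, from 138 ± 5.58 to 104 ± 7.60 CPM (log2 fold change -0.41 ± 0.05, edgeR adjusted p = 1.3e-06), so that the direction matched the labels for both genes but most of the ABL2 mRNA remained. Of 8 medulloblastoma and neural progenitor markers, SOX2 had no count in any library and 7 were tested. At an edgeR adjusted p under 0.05, 4 rose and 3 fell, beside 29.6% and 29.7% of all tested genes. In mean CPM, OTX2 fell from 830 to 666, PROM1 from 251 to 204 and NEUROD1 from 28.5 to 17.8. NES rose from 138 to 339, MAB21L2 from 363 to 654 and IMPG2 from 66.7 to 316. MYC rose from 482 to 526, with overlapping groups. The summed level of 10 blood cell markers was 1.64 to 2.38 CPM in the control and 1.70 to 2.48 CPM in the inactivated libraries, with TYROBP and CD3E at 0 in all libraries and PTPRC at 1 and 3 counts per group. The summed level of 5 fibroblast markers went from between 42.7 and 46.2 to between 33.4 and 36.9 CPM, of which PDGFRB fell from 32.8 to 18.9 CPM and COL1A1 rose from 8.11 to 15.1 CPM. The part of these lists in the kinase results was not tested.

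Of the 10 kinases, 9 changed at an adjusted p under 0.05 in edgeR's quasi-likelihood test: LYN, PTK2B and FES rose, and YES1, FYN, CSK, FER, JAK1 and JAK2 fell. This share has to be read against a broad difference between the groups, since 59.3% of the 14704 tested genes changed, 29.6% upwards and 29.7% downwards. Among genes averaging 5 CPM or more in a group the share was 65.8%, and all 7 kinases at that level changed. The 3 libraries of a group did not overlap those of the other for 9 of the 10 kinases and for 63.2% of all tested genes. Only PTK2B and FES changed by at least 1.5-fold, as did 24.0% of all tested genes. The median absolute log2 fold change was 0.24 for the kinases and 0.27 for all tested genes, and the signed medians were -0.14 and 0.00. In size, the changes of the kinases were close to those of tested genes at large. In bulk RNA, fewer cells of a kind and less RNA per cell cannot be told apart.

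**Figure D1:**
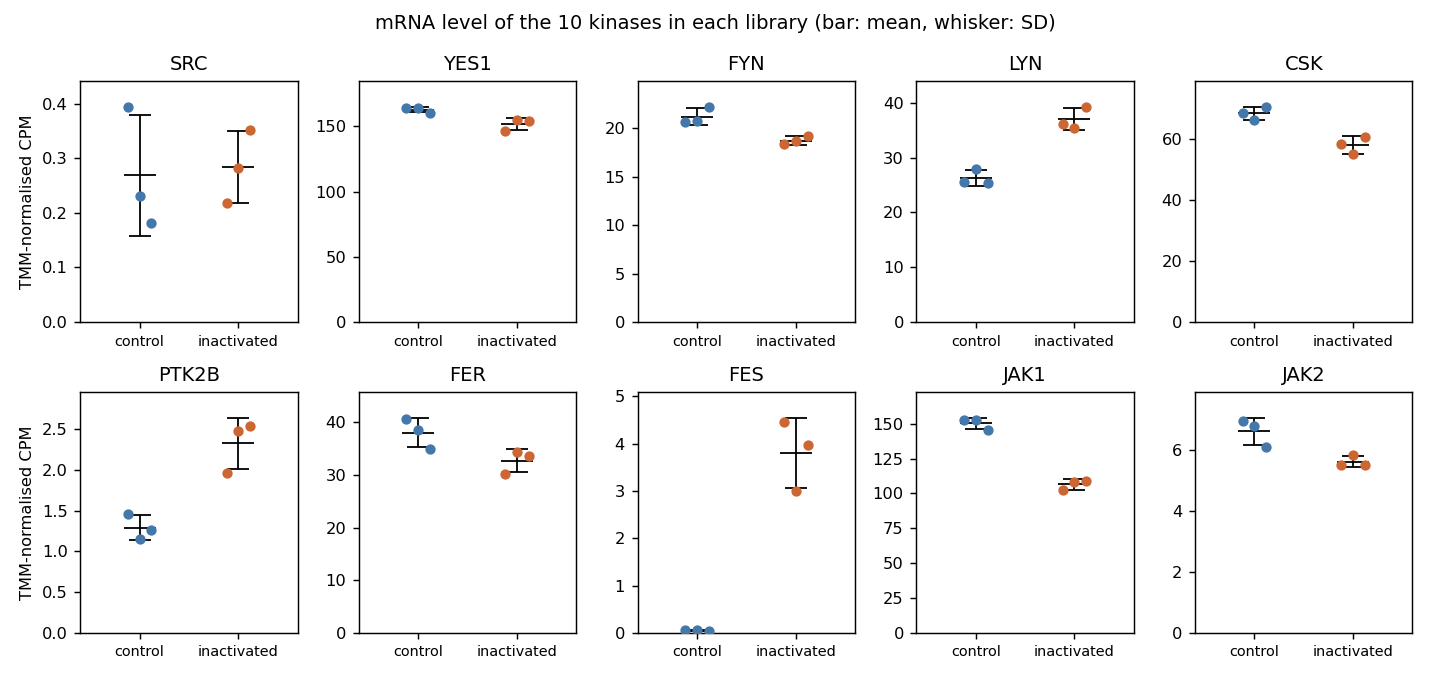
Level of each kinase in each library in TMM-normalised CPM, on linear axes that start at 0. Points are libraries, horizontal bars the mean and whiskers the SD of 3 libraries. Control and inactivated points overlap for SRC alone, and FES lies near 0 in all control libraries.

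YES1, a broadly expressed SRC family kinase, was the most abundant of the 4 family members (chr18:721588-812753, minus strand). Its level was 164, 164 and 160.5 CPM in control cells and 146, 155 and 154 CPM after inactivation. All inactivated libraries were below all control libraries, but the difference was small: YES1 fell by 6.80%, with a log2 fold change of -0.10 ± 0.04 and a 95% interval of -0.19 to -0.01 (edgeR adjusted p = 0.0416). The call did not hold with size factors from DESeq2's method (adjusted p = 0.0535 in edgeR) or without TMM scaling (adjusted p = 0.0956 in edgeR). It was also lost without control replicate 1 (edgeR adjusted p = 0.134), control replicate 2 (0.0891), inactivated replicate 1 (0.184) or inactivated replicate 3 (0.0707).

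FYN, a SRC family kinase with known roles in myelination and at synapses, was also slightly lower in the inactivated cells (chr6:111660332-111873452, minus strand). The control libraries held 20.7, 20.8 and 22.2 CPM and the inactivated libraries 18.4, 18.6 and 19.2 CPM. The groups did not overlap, and FYN fell by 11.7% (log2 fold change -0.18 ± 0.06, 95% interval -0.31 to -0.05, edgeR adjusted p = 0.0155). Without control replicate 3, which had the highest level, the edgeR adjusted p was 0.0653.

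LYN, the SRC family kinase best known from B cells and myeloid cells, moved the other way (chr8:55879835-56014169, plus strand). It was at 25.5, 27.9 and 25.4 CPM in control cells and at 36.2, 35.5 and 39.3 CPM in inactivated cells. The lowest inactivated library lay well above the highest control library, and LYN rose by 40.9% (log2 fold change 0.49 ± 0.06, 95% interval 0.37 to 0.61, edgeR adjusted p = 6.4e-07). Of the 10 blood cell markers, LCP1 had 75 and 120 counts, CD68 63 and 93 and CSF1R 10 and 34 in the control and inactivated libraries, PTPRC had 1 and 3, and TYROBP and CD3E had 0; their part in the LYN result was not tested. The call was kept when any 1 library was left out.

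SRC itself, the kinase that gave the family its name, was barely detected (chr20:37344699-37406050, plus strand). The control libraries had 14, 8 and 6 counts and the inactivated libraries 8, 14 and 12 counts, which is 0.394, 0.230 and 0.181 CPM against 0.219, 0.282 and 0.351 CPM. The groups overlapped fully, and the log2 fold change was 0.06 ± 0.40 (edgeR adjusted p = 0.903). Its 95% interval of -0.78 to 0.91 spans falls and rises of more than 1.5-fold, so a change of that size was not detectable at this depth. The ratio of summed counts, scaled for library size, was 1.04, with a 95% interval of 0.614 to 1.79 that covers counting error only.

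Fallen YES1 and FYN and risen LYN nearly cancelled in the total. The 4 family members summed to between 208 and 213 CPM in the control libraries and to between 201 and 213 CPM in the inactivated libraries, which overlap. The makeup of that total did differ. Divided by the exon length given in the table, YES1 made up 86.4%, 85.5% and 86.1% of family transcripts in the control libraries and 80.99%, 82.1% and 80.6% in the inactivated libraries. The LYN share was 11.3%, 12.2% and 11.4% against 16.9%, 15.8% and 17.3%. FYN went from 2.25% ± 0.123 to 2.02% ± 0.0320, and SRC made up 0.101% ± 0.0414 and 0.108% ± 0.0221 (SD, n = 3 each). Groups did not overlap for YES1, LYN and FYN.

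The shares depend on the length by which counts are divided. The table's exon length merges the exons of all transcripts and is 24565 bases for FYN, whereas its longest coding transcript in GENCODE v29 has 3628 bases. With the longest coding transcript, a choice made after seeing the data, YES1 went from 77.1% ± 0.517 to 73.8% ± 0.792, LYN from 9.93% ± 0.469 to 14.4% ± 0.650 and FYN from 12.9% ± 0.623 to 11.7% ± 0.170. The direction of each share was the same under both lengths, but FYN was above LYN in the control libraries under the second.

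**Figure D2:**
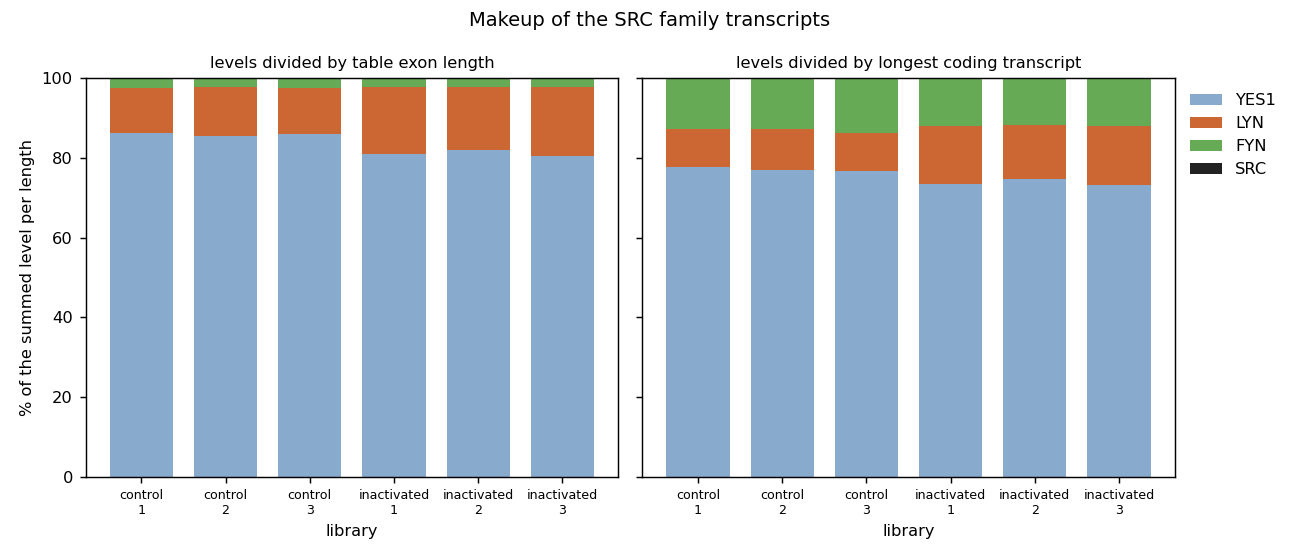
Share of each SRC family gene in the family's summed level per length, in percent, for each of the 6 libraries, with levels divided by the table's exon length (left) or by the longest coding transcript (right). The LYN band is thicker in all inactivated libraries under both lengths, and SRC is too thin to see.

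CSK, which phosphorylates the inhibitory tail tyrosine of SRC family kinases, fell as well (chr15:74782080-74803197, plus strand). Its level was 68.6, 66.3 and 70.5 CPM without and 58.3, 55.1 and 60.7 CPM with inactivation. Every inactivated library was below every control library, and CSK fell by 15.3% (log2 fold change -0.24 ± 0.05, 95% interval -0.34 to -0.14, edgeR adjusted p = 0.000265). Per length, the ratio of CSK to the summed family was 0.555 ± 0.0249 in the control and 0.477 ± 0.0260 in the inactivated libraries (SD, n = 3 each). With the longest coding transcripts the ratio was 0.544 ± 0.0214 and 0.473 ± 0.0253, again without overlap between the groups.

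PTK2B, also called PYK2, couples calcium and adhesion signals to SRC family kinases (chr8:27310506-27459391, plus strand). It was low but present, at 1.46, 1.15 and 1.26 CPM in control cells, and 1.97, 2.48 and 2.54 CPM after inactivation. The groups did not overlap, and PTK2B rose by 80.2% (log2 fold change 0.85 ± 0.18, 95% interval 0.48 to 1.22, edgeR adjusted p = 0.000429). The call rests on 134 counts in all control libraries and 282 in all inactivated libraries. It was not past the threshold when tested against a 1.5-fold change (edgeR adjusted p = 0.133). Its closest relative, the focal adhesion kinase PTK2, was among the 26 rows with missing count values. Its level is therefore unknown here, which is not the same as a count of 0.

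FES, a kinase of the myeloid and vascular lineages that binds curved membranes, showed the largest difference of the 10 kinases (chr15:90884504-90895776, plus strand). The control libraries held 2, 2 and 1 counts and the inactivated libraries 163, 149 and 136 counts. In CPM this was 0.0563, 0.0576 and 0.0301 against 4.46, 3.004 and 3.98, so every control library lay at or under the level of 3 counts and every inactivated library far above it. The ratio of the summed counts, scaled for library size, was 77.0, with a 95% interval of 32.8 to 238 for counting error only. The difference passed the main edgeR test (adjusted p = 7.8e-12). It also passed in every alternative tried, including DESeq2 and the edgeR test against a 1.5-fold change. The fitted log2 fold change of 6.19 depends on the prior count and sets no bound.

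The genes on either side of FES did not share its difference, as seen in values picked out after they were known. FURIN, the proprotein convertase gene directly before FES, was at 29.6 ± 0.967 CPM in the control and 29.2 ± 1.04 CPM in the inactivated libraries (log2 fold change -0.03, edgeR adjusted p = 0.714). MAN2A2, a mannosidase gene directly after FES, fell from 47.8 ± 1.91 to 33.1 ± 0.565 CPM (log2 fold change -0.53, edgeR adjusted p = 2.7e-08). No exon of FES overlapped an exon of another gene in the table. Counts of myeloid markers in the same libraries were low: SPI1 had 11 and 1 counts, ITGAM 25 and 1 counts and CD14 27 and 5 counts in the control and inactivated libraries, while CSF1R had 10 and 34.

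FER, the second FES family kinase, which associates with cadherin junctions, was far more abundant than FES in the control cells (chr5:108747897-109196841, plus strand). It was at 40.6, 38.5 and 35.0 CPM in control cells and 30.2, 34.3 and 33.6 CPM in inactivated cells. The lowest control and the highest inactivated library were close but did not cross, and FER fell by 14.04% (log2 fold change -0.22 ± 0.06, 95% interval -0.35 to -0.09, edgeR adjusted p = 0.00575). Without control replicate 1 the edgeR adjusted p was 0.0651. Summed over both genes without division by length, the family stood at between 35.0 and 40.7 CPM in the control libraries. The inactivated libraries, at between 34.7 and 37.6 CPM, overlapped these. Such a sum is dominated by FER, whose exons span 22468 bases against 2867 for FES. Per kilobase of the table's exon length, FES went from 0.0167 to 1.33 CPM and FER from 1.69 to 1.46 CPM. The overlap of the sums therefore need not hold per length.

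JAK1, which serves interferon and interleukin-6 type receptors, had the largest fall in fold change among the 10 kinases (chr1:64833229-65067746, minus strand). Its level was 153, 152 and 145 CPM in control cells and 102, 108 and 109 CPM in inactivated cells. The groups were far apart, and JAK1 fell by 29.1% (log2 fold change -0.50 ± 0.04, 95% interval -0.59 to -0.40, edgeR adjusted p = 9.7e-09). This was larger than the fall of ABL2 by point estimate, although that difference was not tested. JAK1 shares 4 exon bases with RAVER2 on the opposite strand, a negligible part of its exons.

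JAK2, which serves growth hormone, prolactin and erythropoietin receptors, was less abundant (chr9:4984390-5129948, plus strand). It was at 6.95, 6.80 and 6.11 CPM in control cells, against 5.50, 5.85 and 5.52 CPM after inactivation. The groups did not overlap, and JAK2 fell by 15.1%, with a log2 fold change of -0.23 ± 0.10 and a 95% interval of -0.43 to -0.03 (edgeR adjusted p = 0.0437). That call is the weakest of the 9. It was lost in DESeq2 (adjusted p = 0.163), without the filter on low counts (edgeR adjusted p = 0.0598), without TMM scaling (0.0678) and in lane 1 alone (0.600, log2 fold change -0.09). It was lost too without control replicate 1 (edgeR adjusted p = 0.167), control replicate 2 (0.110), inactivated replicate 1 (0.101) or inactivated replicate 3 (0.0980).

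Levels can be compared between genes only per length. On the table's exon length the order in the control libraries, in CPM per kilobase, was YES1 at 33.0, CSK at 21.3, JAK1 at 8.88, LYN at 4.47, FER at 1.69, FYN at 0.864, JAK2 at 0.831, PTK2B at 0.206, SRC at 0.0386 and FES at 0.0167. Neighbours in this order did not overlap over the 3 libraries, except FYN and JAK2. In the inactivated libraries FES stood at 1.33, just under FER at 1.46, and their libraries overlapped. LYN and JAK1 were level there, at 6.30 each. Both matches depend on the table's exon length. Divided by the longest coding transcript, FER stood at 2.699 and FES at 1.35 in the inactivated libraries, without overlap. JAK1 stood at 21.1 and LYN at 6.37 in the same libraries by that length. With the longest coding transcript JAK1 moved above CSK in the control libraries, at 29.8 against 24.7 CPM per kilobase, because the merged exons of JAK1 span 16913 bases and its longest coding transcript 5047.

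The remaining cytoplasmic tyrosine kinases give the wider family picture. Of 22 listed, ABL1 and ABL2 included, 9 had enough counts to test and 5 changed, a share close to the 59.3% of all tested genes, with SYK and TNK2 upwards and ABL1, ABL2 and MATK downwards. SYK, which acts after antigen and Fc receptors, was at 3.18, 2.79 and 2.83 CPM in the control and 12.7, 13.3 and 13.4 CPM in the inactivated libraries. It rose with a log2 fold change of 2.16 ± 0.09 (edgeR adjusted p = 3.1e-13). MATK, a CSK relative that also phosphorylates the SRC family tail, was near detection at 0.788, 0.547 and 0.722 against 0.219, 0.222 and 0.585 CPM. Its groups overlapped, and its fall (log2 fold change -1.06 ± 0.36, edgeR adjusted p = 0.0171) was lost when control replicate 1 or 3, or inactivated replicate 1 or 2, was left out (edgeR adjusted p from 0.0509 to 0.0850).

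TNK2, also called ACK1, went from 15.4 ± 1.32 to 17.6 ± 1.14 CPM with overlapping groups (log2 fold change 0.20 ± 0.07, edgeR adjusted p = 0.0281). That call was lost without control replicate 2 (edgeR adjusted p = 0.189) or inactivated replicate 2 (0.0947). The other JAK family genes were not past the threshold: TYK2 was at 41.4 ± 0.945 and 44.6 ± 0.400 CPM (log2 fold change 0.11 ± 0.05, edgeR adjusted p = 0.0593; 0.0222 without TMM scaling and 0.0446 with a filter at 1 CPM), and JAK3 at 0.351 and 0.502 CPM (edgeR adjusted p = 0.201). FRK, a relative of the SRC family, was at 0.346 and 0.580 CPM (edgeR adjusted p = 0.0532), and it passed without control replicate 1 (0.0376) or without TMM scaling (0.0456). TEC did not pass either (edgeR adjusted p = 0.370). The blood cell kinases FGR, BLK, BMX and ZAP70 had no count in any library, and LCK had 6 counts in the control and 0 in the inactivated libraries.

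**Figure D3:**
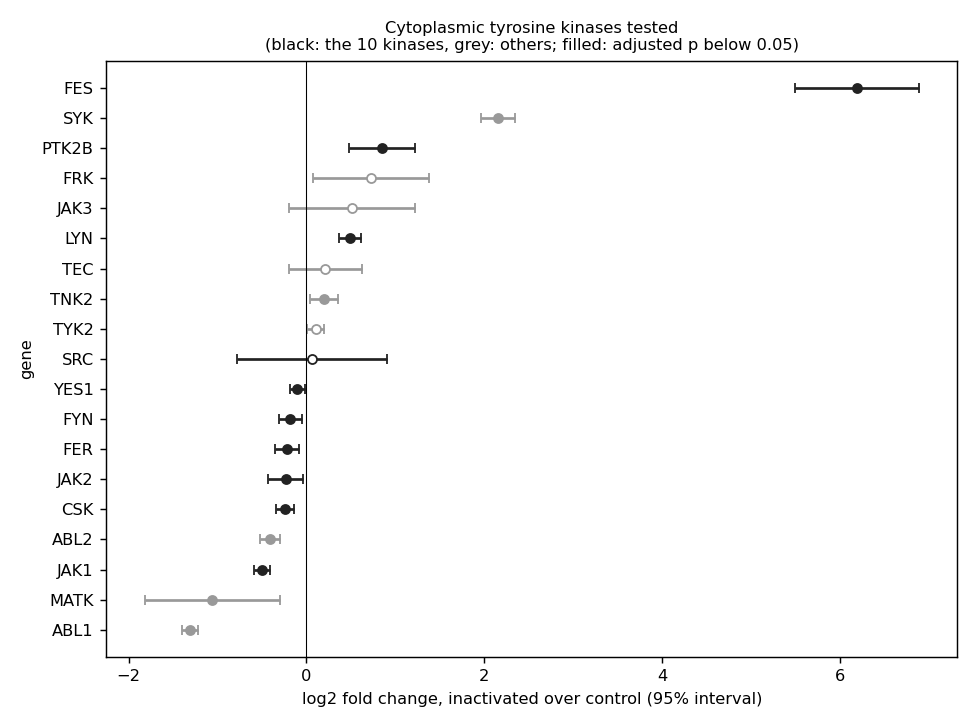
Log2 fold change, inactivated over control, with its 95% interval for the 19 cytoplasmic tyrosine kinases that could be tested. Filled points had an edgeR adjusted p under 0.05. Of the 10 kinases in black, FES, PTK2B and LYN lie to the right of 0, and the wide interval of SRC crosses it; the FES estimate depends on the prior count.

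Receptor tyrosine kinases serve as the wider comparison. Of 58 listed, 42 were tested, 15 rose and 21 fell, beside 29.6% and 29.7% of all tested genes, with a median absolute log2 fold change of 0.63 beside 0.24 for the 10 kinases; this difference was not tested. ERBB3, a neuregulin receptor, rose from 1.56 ± 0.305 to 8.998 ± 0.699 CPM, and KDR, a VEGF receptor, from 2.22 ± 0.342 to 8.41 ± 0.690 CPM. MERTK, a TAM receptor, fell from 36.4 ± 1.45 to 19.0 ± 0.359 CPM.

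Genes that control SRC family activity changed in both directions. Of 15 listed regulators 11 were tested, 7 fell, 3 rose and 1 missed the threshold, beside 29.7% falling and 29.6% rising of all tested genes, and the list median was -0.29 on the log2 scale beside 0.00 for all tested genes. PAG1, the membrane adaptor that brings CSK to the SRC family, was at 124, 121 and 113 CPM in control cells and 51.9, 57.9 and 53.8 CPM in inactivated cells. The 3 inactivated libraries were all below the 3 control libraries (log2 fold change -1.13 ± 0.05, edgeR adjusted p = 5.3e-13). PTPN1, a phosphatase that can remove the inhibitory tail phosphate, fell from 149 ± 2.28 to 95.05 ± 3.75 CPM (log2 fold change -0.65 ± 0.04, edgeR adjusted p = 1.8e-10). PTPN12, a phosphatase for adhesion substrates, fell from 59.0 ± 2.50 to 33.5 ± 0.581 CPM (log2 fold change -0.82 ± 0.05, edgeR adjusted p = 4.3e-11). Its 40 neighbours on chromosome 7 had a median log2 fold change of -0.89, so PTPN12 did not stand out from its surroundings. CSK, its adaptor PAG1 and the opposing phosphatase PTPN1 were thus all lower in mRNA.

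Substrates and scaffolds of the SRC family changed in both directions as well. Of 22 listed 18 were tested, of which 11 fell, 3 rose and 4 missed the threshold, against the same 29.7% and 29.6% of all tested genes, and the median of the list was -0.23 (log2). DAB1, the reelin adaptor that FYN and SRC phosphorylate in neurons, was at 34.4, 36.1 and 32.3 CPM in the control and 8.48, 9.33 and 10.3 CPM in the inactivated libraries (log2 fold change -1.87 ± 0.07, edgeR adjusted p = 6.6e-14). TNS3, a focal adhesion protein, fell from 17.2 ± 1.03 to 10.4 ± 0.891 CPM (log2 fold change -0.72 ± 0.08, edgeR adjusted p = 1.6e-07). NEDD9, a docking protein of the BCAR1 family, was among the 3 that rose, from 149 ± 4.20 to 252 ± 5.30 CPM (log2 fold change 0.76 ± 0.04, edgeR adjusted p = 1.0e-11). The neighbours of NEDD9 on chromosome 6 had a median of 0.52. SKAP2, outside the naming rule and picked out after its value was seen, went from 0.0382 to 0.528 CPM, the first of these under the level of 3 counts.

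On the JAK side, receptors and STAT factors moved in both directions. Of 21 listed cytokine receptors 17 were tested, with 7 rising, 5 falling and 5 short of the threshold. Of all tested genes 29.6% rose and 29.7% fell. The median of the receptors was 0.15 (log2). LIFR, a receptor for leukaemia inhibitory factor that signals through JAK1, was at 25.2, 26.2 and 23.1 CPM in the control and 54.2, 60.1 and 56.3 CPM in the inactivated libraries (log2 fold change 1.20 ± 0.06, edgeR adjusted p = 1.7e-12). GHR, the growth hormone receptor that signals through JAK2, fell from 34.5 ± 0.301 to 17.2 ± 1.01 CPM (log2 fold change -1.01 ± 0.06, edgeR adjusted p = 2.6e-11). IFNGR1, the ligand-binding interferon gamma receptor chain, rose from 74.6 ± 2.08 to 110.3 ± 2.52 CPM (log2 fold change 0.56 ± 0.04, edgeR adjusted p = 1.3e-09), and its 40 neighbours on chromosome 6 had a median of 0.37.

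All 6 tested STAT factors changed, 4 upwards and 2 downwards, where 59.3% of all tested genes changed, and STAT5A had too few counts to test. STAT3, the main effector of interleukin-6 type receptors, was at 71.1, 70.9 and 70.1 CPM in control cells and 218, 219 and 222 CPM in inactivated cells. The groups lay far apart, with a log2 fold change of 1.64 ± 0.04 (edgeR adjusted p = 1.2e-16). STAT5B rose too, from 24.7 ± 0.527 to 43.7 ± 0.199 CPM (log2 fold change 0.83 ± 0.05, edgeR adjusted p = 5.1e-11). Both lie on chromosome 17, where 36 of the 40 tested neighbours of STAT3 also rose and the neighbour medians were 0.55 for STAT3 and 0.51 for STAT5B. STAT6, the effector of interleukin-4, fell from 22.8 ± 1.51 to 5.99 ± 0.268 CPM (log2 fold change -1.92 ± 0.08, edgeR adjusted p = 8.9e-14), with a neighbour median of -0.01. Outside the naming rule, STAT2 and STAT4 rose with log2 fold changes of 0.28 and 0.97.

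Inhibitors and adaptors of the pathway showed no common direction. All 16 were tested, 6 upwards and 5 downwards past the threshold, beside 29.6% and 29.7% of all tested genes. The median of the list was 0.08 (log2). SOCS3, a feedback inhibitor of STAT3 signalling, was at 1.72, 1.76 and 1.48 CPM in the control and 2.71, 2.90 and 3.51 CPM in the inactivated libraries (log2 fold change 0.87 ± 0.16, edgeR adjusted p = 1.0e-04). It also lies on chromosome 17, where its neighbours had a median of 0.46. PIAS1 rose from 75.6 ± 2.06 to 93.9 ± 2.79 CPM, whereas PIAS2, a second protein inhibitor of activated STAT, fell from 62.6 ± 1.29 to 43.7 ± 1.99 CPM.

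**Figure D4:**
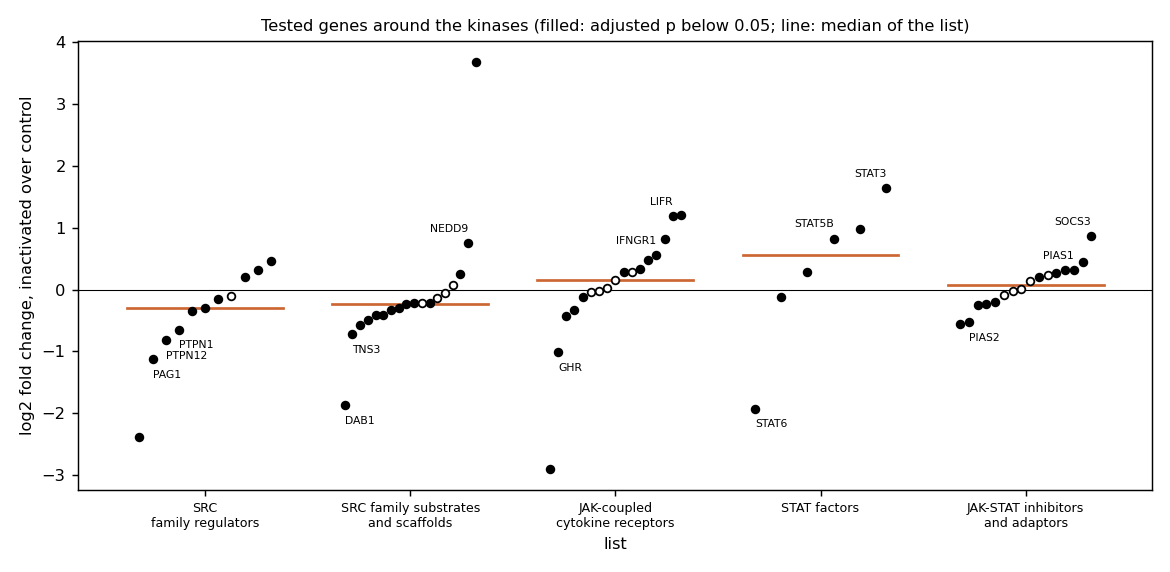
Log2 fold change, inactivated over control, of each tested gene in 5 lists around the kinases, ordered by size within a list. Filled points had an edgeR adjusted p under 0.05, and orange lines are list medians. The labelled genes are those described with values in the text, except SKAP2, STAT2 and STAT4, which are not labelled. SRC family regulators and substrates have medians of -0.29 and -0.23, and STAT factors range from -1.92 for STAT6 to 1.64 for STAT3.

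Because whole stretches of some chromosomes moved together, each kinase was set beside up to 20 tested genes on each side of it. FYN went against its surroundings: 29 of its 40 neighbours on chromosome 6 rose and 4 fell, with a median log2 fold change of 0.47, while FYN itself had -0.18. LYN, PTK2B and JAK1 also differed from their neighbours, by 0.61, 0.80 and -0.48 on the log2 scale. YES1 and FER did not stand out, at -0.10 and -0.22 beside neighbour medians of -0.18 and -0.15. For CSK the neighbour median was -0.06, for JAK2 0.05, for SRC -0.09 and for FES -0.02. Some genes close to LYN also changed, as was seen after the values were known: PLAG1, a zinc finger factor, rose from 1.05 to 6.60 CPM and CHCHD7 from 3.63 to 9.83 CPM, XKR4 fell from 2.08 to 0.0719 CPM and RP1 from 0.482 to 0.0226 CPM, while TGS1, directly before LYN, had a log2 fold change of 0.10. What such stretches reflect was not tested.

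**Figure D5:**
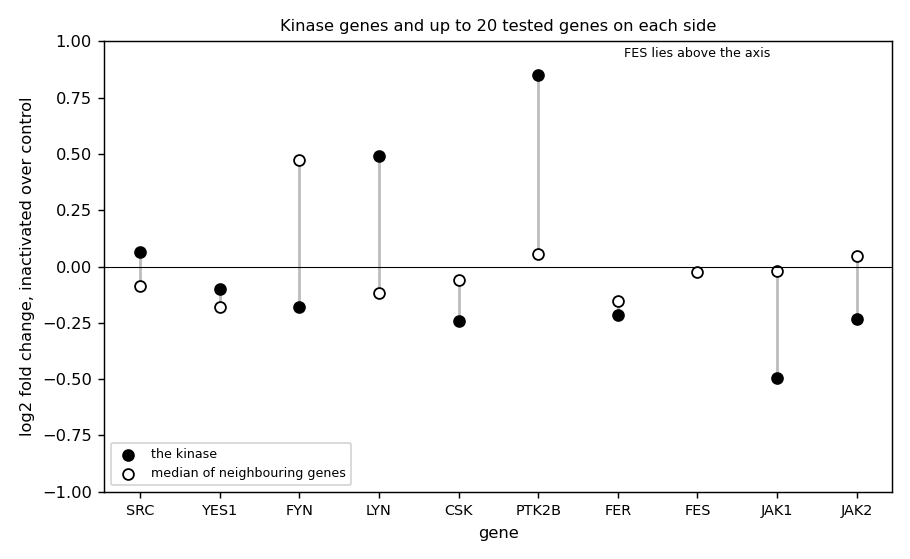
Log2 fold change, inactivated over control, of each kinase (filled) and the median of up to 20 tested genes on each side (open). FYN at -0.18 lies below its neighbours at 0.47, whereas YES1 and FER lie close to theirs; FES, at a fitted 6.19, is above the axis.

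The tyrosine kinase with the most similar pattern over the 6 libraries was found by Euclidean distance of log2 CPM after subtraction of each gene's control mean, out of 60 other tested tyrosine kinases. FER and JAK2 were each other's nearest, at a distance of 0.111. YES1 was nearest to the VEGF receptor FLT1 at 0.0658, FYN to the WNT receptor RYK at 0.124 and CSK to FYN at 0.143. JAK1 was nearest to ABL2 at 0.195, LYN to PDGFRA at 0.233 and PTK2B to FRK at 0.483. SRC had EPHB4 at 0.584, and FES had no close match, with ERBB3 nearest at 3.61. These distances describe 6 libraries in 2 groups, and small values arise mainly where the fold changes are alike.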

How the data were processed

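The authors sequenced mRNA-enriched libraries as 50 bp paired-end reads in 2 lanes, per the labels. The submitters' processing notes list STAR 2.7.2b, featureCounts 1.6.3, FastQC 0.11.9, MultiQC 1.11 and DESeq2 1.36.0 with GRCh38.p14. Strand and multi-mapping settings are not given in the sources used. The deposited values are raw read counts per gene for 12 lane columns, with an exon length per gene. Lanes were summed to 6 libraries. Of 49677 rows, 26 with missing count values were left out. Genes were filtered with edgeR 4.0.16 in R 4.3.3 (minimum count 10, minimum total 15), scaled by TMM and tested with the quasi-likelihood F test over 14704 genes, with Benjamini-Hochberg adjustment at 0.05. The script was tested on simulated data. CPM are counts per 1000000 TMM-scaled counts of tested genes, and log2 distances used a pseudocount of 0.125 CPM. Alternatives used DESeq2 1.42.0, limma 3.58.1, other scalings, filters, single lanes, a 1.5-fold threshold and each library left out. The text names all 10 kinases, every tested further cytoplasmic tyrosine kinase and, of each other list, the 3 changed genes with the lowest p. Members and lists were chosen with earlier results of these data known. Some genes of the lists are not reported here by name. Promoters came from RefSeq on GRCh38.p14 and transcript lengths from GENCODE v29.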

Additional observations from a re-analysis of the deposited data

How the results depend on the processing

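LYN, CSK, PTK2B and JAK1 kept their direction and their call under every alternative except the test against a 1.5-fold change, and FES kept both under that test too. Under the 1.5-fold test 1 of the 10 kinases was called, 1 higher and 0 lower, with 2280 genes called in all, 1128 higher and 1152 lower, and 2 of the further cytoplasmic tyrosine kinases. Without TMM scaling 7 of the further cytoplasmic tyrosine kinases were called, TYK2 and FRK being added. DESeq2 called 6 of the 10 kinases, 3 of them lower, and 3 of the further cytoplasmic tyrosine kinases. It called 7811 of all genes, where the main fit called 8726. Lane 1 alone called 6 of the 10 kinases, again 3 of them lower, and 7520 of all genes. With each library left out in turn, 6 to 9 of the 10 kinases were called and 3 to 6 were lower, the lowest without control replicate 1. Of all genes, 7923 to 8725 were called in these fits. The further cytoplasmic tyrosine kinases called then ranged from 3 to 5, the lowest without inactivated replicate 2. SRC, which was never called, ranged from -0.15 to 0.21 in log2 fold change, and its sign changed when control replicate 2 (-0.04), control replicate 3 (-0.15) or inactivated replicate 3 (-0.09) was left out. FYN was also lost in DESeq2 (adjusted p = 0.0585) and in lane 1 alone (0.0529) or lane 2 alone (0.0871), and YES1 in DESeq2 (0.0502) and lane 1 alone (0.149). Of the log2 fold changes of the 10 kinases, ABL1 and ABL2 under alternatives, 143 kept direction and side of the threshold, 30 lost the call and 3 changed sign; with so few SRC counts, depth limits that gene. With counts not divided by length or the longest coding transcript, chosen after seeing the data, the FYN share differed by -1.06 or -1.19 percentage points in place of -0.24. With the longest coding transcript the YES1 share differed by -3.27 points in place of -4.76, and without division by length the ratio of CSK to the family by -0.05 in place of -0.08. With 10 or 40 in place of 20 genes on each side, 5 of the 20 recomputed neighbour medians moved by over 0.1, and those of SRC (0.03), FES (0.09), JAK1 (0.07) and JAK2 (-0.12 and -0.08) changed sign. No scaling moved the median log2 fold change of all genes by more than 0.03. No paired analysis was possible because the labels give the groups no shared replicate numbers.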
